A study of Mus musculus with 10 samples.

Results

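The genes described here are 40 genes of the plasma cascades that the liver secretes into blood: 21 of complement and 19 of clotting and its control. They were listed by symbol, no measured value being part of the rule, and each was found as 1 row of the 55385 gene IDs in the tables. The list was written with earlier results of these data known. The values come from RNA of homogenised frozen whole mouse liver, sequenced on the BGISeq-500 in 10 libraries. By their labels, 5 libraries belong to the group Alk1-HEC-KO, of genotype KO, and 5 to the group Control, of genotype Ctrl. The labels do not spell out HEC and give no strain, age, sex, treatment, promoter or Cre line. They also do not tie the libraries of a group to separate mice, so a p-value here measures the spread between libraries only. Levels are in TPM, a share of all transcripts that adjusts for transcript length and sums to the same total in each library. Fold changes are log2 ratios of the libraries labelled Alk1-HEC-KO to the Control libraries, with their standard error (SE), fitted by edgeR on the estimated counts, so they can differ from the ratio of mean TPM. A gene was called when its Benjamini-Hochberg adjusted p over all 12872 tested genes was under 0.05.

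Complement is a set of plasma proteins that cleave one another in a chain on the surface of microbes or damaged cells. The chain can start from C1, which reads antibody complexes, from the mannose-binding lectins, which read sugars, or from slow self-activation of C3 that factors B and D amplify. All routes cleave C3 and then C5, and end in a pore made of the terminal components. Clotting is a similar chain of proteases. It runs from contact or tissue injury through factor X to thrombin, which turns fibrinogen into fibrin, while antithrombin, protein C and plasmin limit or dissolve the clot. Hepatocytes make most of these proteins. Exceptions within the 40 genes are the C1q chains and properdin, which come mainly from macrophages and other myeloid cells, and factor D, which comes mainly from fat tissue.

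The label of the knockout group went against the level of the gene it names. Acvrl1, the gene of ALK1, averaged 1.36 ± 0.331 TPM in the libraries labelled Alk1-HEC-KO and 0.669 ± 0.331 TPM in Control libraries (SD, n = 5 each). On counts its log2 fold change was 0.99 (SE 0.32) and was not called (edgeR quasi-likelihood test, adjusted p = 0.34). Summed over the gene, such a level cannot reveal a loss of only some exons, and every direction given here rests on the label. Library totals ran from 20.91 to 21.56 M (mega) estimated counts. Hepatocyte RNA was plentiful in every library, as the liver label implies. The 10 hepatocyte markers, with albumin (Alb) the most abundant, summed to 91767 to 119536 TPM in the libraries labelled Alk1-HEC-KO and 70674 to 119926 TPM in Control libraries, and 0 of the 10 were called. In whole tissue, fewer cells of a type and less RNA per cell cannot be told apart.

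The cascade genes that hepatocytes make lay at overlapping levels in both groups, and the members with the highest fold changes in the libraries labelled Alk1-HEC-KO were the 4 that macrophages mainly make. C1qa, C1qb and C1qc, the chains of C1q, had log2 fold changes of 0.66, 0.74 and 0.65, and Cfp, the gene of properdin, one of 0.61. None of the 4 was called. The remaining 35 tested members spread from -0.27 (F5) to 0.43 (Fgb) with a median of 0.02.

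Of the 40 members, 39 passed the filter on low counts. Cfd, the gene of factor D, did not. Of those 39, 0 were called in either direction by edgeR, where 0.357% of all tested genes were called (46 genes). At an unadjusted p under 0.05 there were 4 members, the C1q chains and Cfp, all pointing higher in the libraries labelled Alk1-HEC-KO, against a background of 8.44% of all tested genes in either direction and 5.03% in that direction. DESeq2 also called 0 members, with 1.18% of all genes called and 0.077 as the smallest adjusted p of a member (C1qc). It had the same number at an unadjusted p under 0.05, 4, with a background of 9.18%. With limma on log2(TPM + 1), 0 members were called, with 0.256% of genes called, and 5 passed unadjusted, with a background of 6.63%. On log2(TPM + 0.1) it called 0 members as well, with 0.326% of genes called. For 2 members the TPM values of both groups were fully apart, C1qb and C1qc, where 1.62% of tested genes had no overlap, 1.31% with the libraries labelled Alk1-HEC-KO on the higher side.

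Among the 20 tested complement members, 14 pointed higher and 6 lower in the libraries labelled Alk1-HEC-KO, with a median log2 fold change of 0.05. Among the 19 clotting members, 12 pointed higher and 7 lower, with a median of 0.03. The median over all tested genes was 0.002. Many of these directions changed with the fit. The sign of 17 of the 39 members differed when a run of neighbouring numbers in the names of the deposited files was a covariate. That covariate leaves libraries 2, 4 and 5 labelled Alk1-HEC-KO out of the group contrast, because their run holds no Control library. The contrast then rests on libraries 1 and 3 of that group. The sign of 13 members differed without Control libraries 1 and 2, which held Fos above 20 TPM. The intervals of the fit on group alone show what size of difference the spread between libraries leaves room for. They do not cover an effect of the run. The 95% interval of the log2 fold change lay within 1 of 0, a difference of less than 2-fold, for 15 of the 20 complement members and 17 of the 19 clotting members. It lay within 0.5 of 0 for 10 and 12 of them. The narrowest interval among clotting members was that of F12, from -0.27 to 0.25, and the narrowest among complement members that of C1s1, from -0.37 to 0.11. The widest were those of Fgb, from -0.31 to 1.16, and C3, from -0.26 to 1.06.

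**Figure D1:**
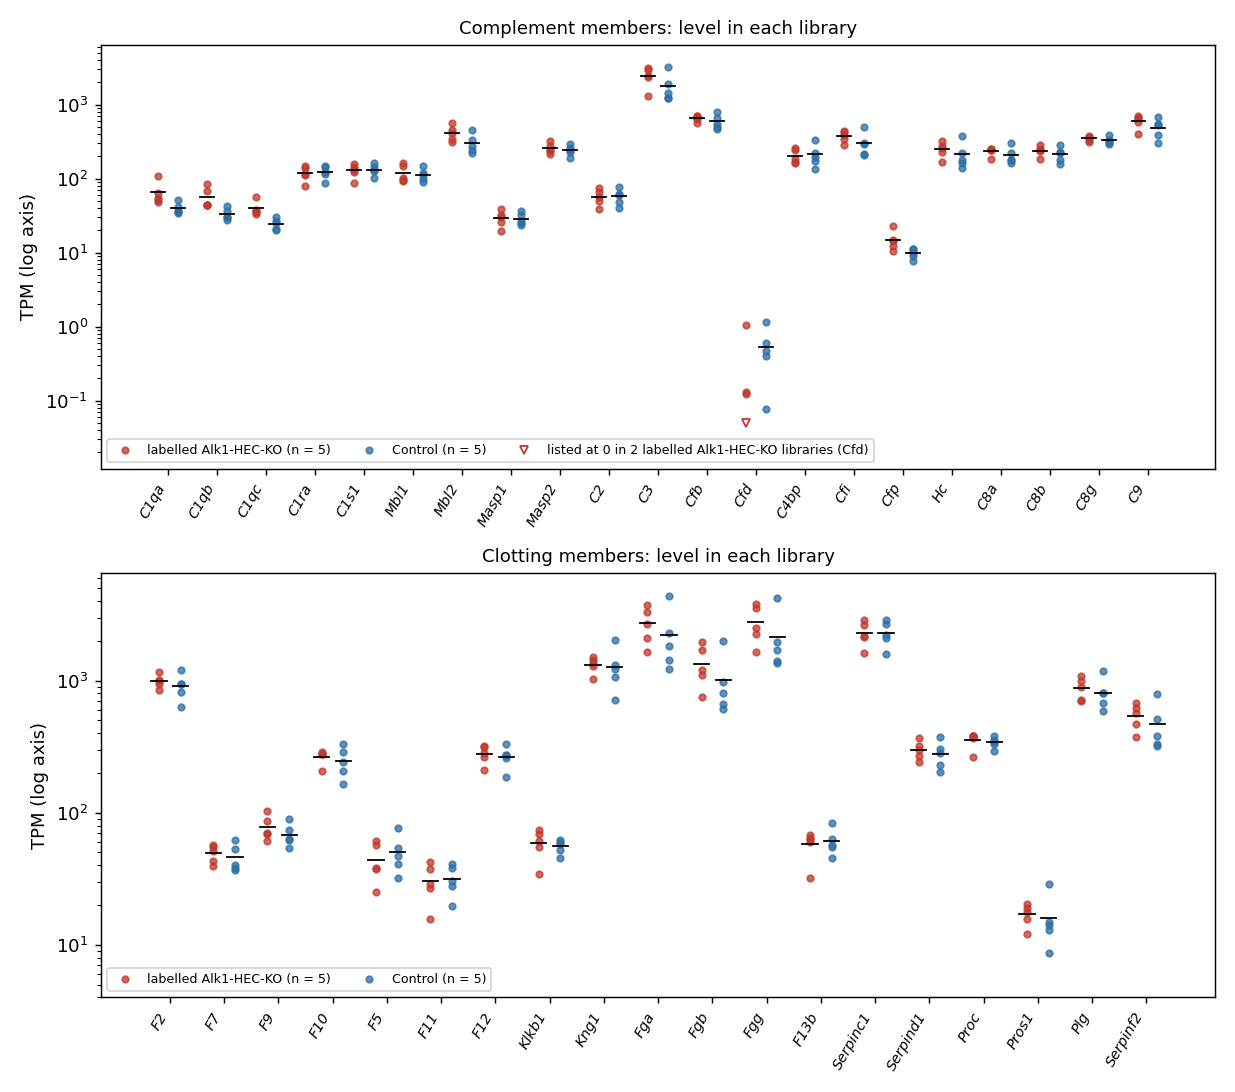
Level of each complement member (upper panel) and each clotting member (lower panel) in TPM on a log axis. Each point is a library, red for the 5 labelled Alk1-HEC-KO and blue for the 5 Control libraries, black lines are group means, and the open triangle marks Cfd, listed at 0 in 2 libraries labelled Alk1-HEC-KO and given no mean there. The points of the groups lie apart for C1qb and C1qc alone.

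**Figure D2:**
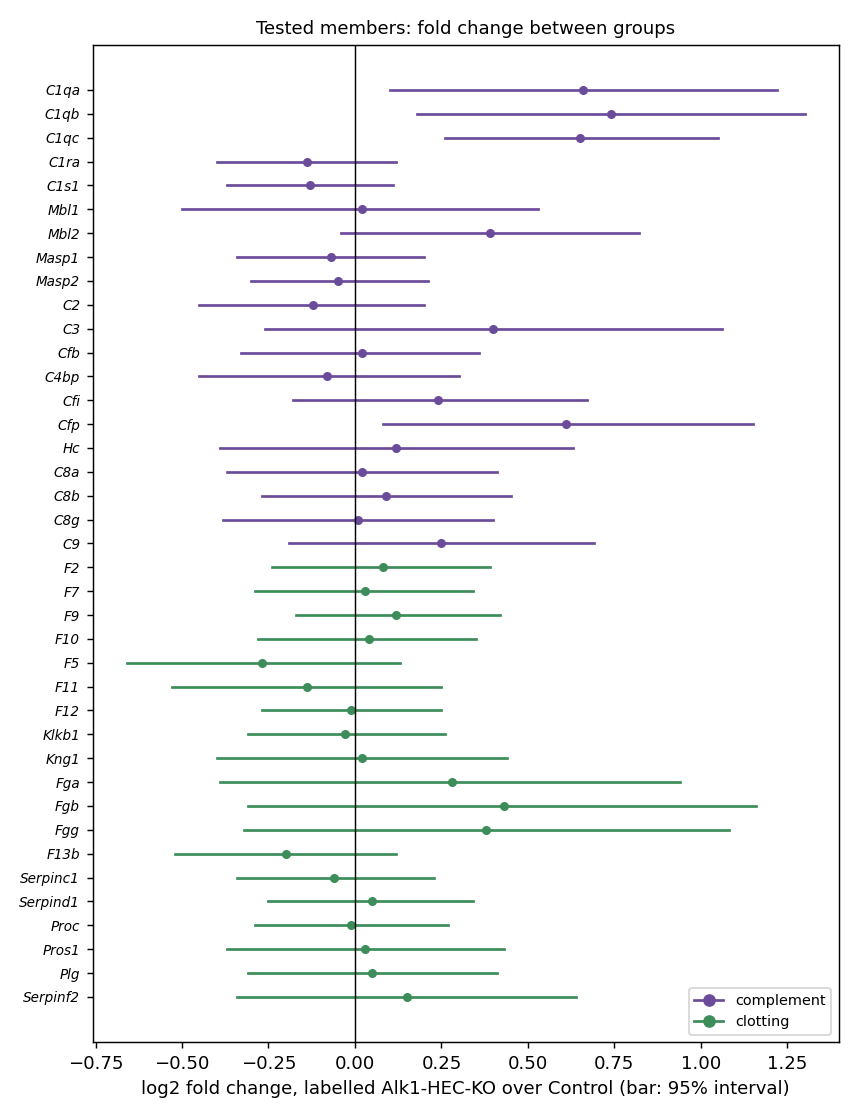
Log2 fold change of each tested member, libraries labelled Alk1-HEC-KO over Control, with its 95% interval from edgeR (horizontal axis), ordered by role. Purple is complement and green is clotting. The 4 members whose interval leaves out 0 are C1qa, C1qb, C1qc and Cfp, and 35 of the 39 lie within 0.5 of 0.

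The start of the classical route is the C1 complex, in which C1q recognises and the proteases C1r and C1s cut. The C1q chains pointed higher in the libraries labelled Alk1-HEC-KO and the proteases slightly lower, and none was called. C1qa (chromosome 4, 136895917 to 136898803, GRCm38) held 54.4, 47.8, 51.9, 109 and 63.2 TPM in libraries 1 to 5 labelled Alk1-HEC-KO and 35.7, 36.8, 34.8, 42.0 and 51.8 TPM in Control libraries 1 to 5. Library 4 labelled Alk1-HEC-KO was far above the others, and library 2 of that group lay below Control library 5, so the groups overlapped. On counts the C1qa log2 fold change was 0.66, SE 0.26 (edgeR, unadjusted p = 0.025, adjusted p = 0.51).

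C1qb (136880129 to 136886187 on the same chromosome) held 44.2, 43.9, 44.2, 83.7 and 67.4 TPM in the libraries labelled Alk1-HEC-KO and 30.0, 30.0, 27.7, 36.6 and 42.4 TPM in Control libraries. Every library labelled Alk1-HEC-KO lay above every Control library, by a narrow gap (exact two-sided permutation p = 0.0079, the least possible with 5 libraries a side). The log2 fold change was 0.74, SE 0.26 and was not called (edgeR, adjusted p = 0.42). C1qc (136889804 to 136893065) showed the same separation, with 32.9, 37.1, 36.0, 57.4 and 37.7 TPM in the libraries labelled Alk1-HEC-KO and 21.2, 25.2, 20.4, 26.5 and 30.4 TPM in Control libraries. Its log2 fold change of 0.65 had a standard error of 0.18 and was not called either (edgeR, unadjusted p = 0.0034, adjusted p = 0.27). Without a filter on low counts C1qc was called (edgeR, adjusted p = 0.044), the only call of a member in any setting tried.

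The sum of the chains differed more than their proportions. Together they held 162 ± 52.0 TPM in the libraries labelled Alk1-HEC-KO and 98.3 ± 16.9 TPM in Control libraries (SD, n = 5 each), without overlap. C1qa over C1qb was 1.15 ± 0.141 in libraries labelled Alk1-HEC-KO and 1.21 ± 0.0417 in Control libraries, and C1qc over C1qb 0.731 ± 0.114 and 0.744 ± 0.0539 in libraries labelled Alk1-HEC-KO and in Control libraries. The 3 genes lie side by side in less than 20 kb. RefSeq (GRCm38.p6) gave promoters for C1qb and C1qc, shown because these are the members without overlap. Each sequence runs 5′ to 3′ on the gene's strand, from 250 bases before to 50 bases after the start, and capitals mark the letters GAGGAAGT on either strand, a motif of the myeloid factor PU.1.
C1qb (minus strand, chr4:136886151-136886450): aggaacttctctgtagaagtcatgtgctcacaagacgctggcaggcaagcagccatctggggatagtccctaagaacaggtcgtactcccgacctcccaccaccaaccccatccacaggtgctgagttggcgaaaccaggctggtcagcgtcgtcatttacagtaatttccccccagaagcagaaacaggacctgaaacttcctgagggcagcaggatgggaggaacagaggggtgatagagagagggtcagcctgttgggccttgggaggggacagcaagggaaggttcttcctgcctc
C1qc (minus strand, chr4:136892865-136893164): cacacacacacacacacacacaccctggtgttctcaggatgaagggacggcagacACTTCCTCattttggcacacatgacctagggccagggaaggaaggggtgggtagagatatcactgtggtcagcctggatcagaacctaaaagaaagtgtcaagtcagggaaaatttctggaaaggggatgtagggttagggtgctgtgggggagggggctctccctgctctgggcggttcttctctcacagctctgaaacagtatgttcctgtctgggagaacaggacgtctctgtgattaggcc
The motif was present in the C1qc window and not in that of C1qb, and 3.2% of all 32851 promoter windows held it.

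Markers of macrophages pointed the same way as the C1q chains. All 10 Kupffer cell and macrophage markers pointed higher in the libraries labelled Alk1-HEC-KO, 7 at an unadjusted p under 0.05 (edgeR) and 0 called, with a median log2 fold change of 0.75. Over all tested genes 8.44% had an unadjusted p under 0.05, 5.03% in that direction. The sum of the markers ran from 127 to 267 TPM in the libraries labelled Alk1-HEC-KO and from 89.1 to 128 TPM in Control libraries, and none of the 10 was at 0 in any library. Library 4 labelled Alk1-HEC-KO held the highest sum and was the highest library in each of the markers. Marco, a scavenger receptor of macrophages with the smallest p of them, averaged 6.91 ± 4.19 TPM in the libraries labelled Alk1-HEC-KO and 1.32 ± 0.746 TPM in Control libraries (log2 fold change 2.37, edgeR adjusted p = 0.097). DESeq2, both limma fits and the replicate block did call Marco, and the other fits did not. With the run as a covariate its log2 fold change was 1.59 (edgeR, adjusted p = 0.75). Without a filter on low counts the adjusted p was 0.23, and without library 4 labelled Alk1-HEC-KO it was 0.13 (edgeR). Clec4f, a lectin of Kupffer cells and the most abundant of them, averaged 41.4 ± 11.8 TPM in the libraries labelled Alk1-HEC-KO and 26.9 ± 6.28 TPM in Control libraries. The C1q sum divided by the marker sum was 0.931 ± 0.0589 in libraries labelled Alk1-HEC-KO and 0.979 ± 0.118 in Control libraries (SD, n = 5 each), and the groups overlapped. The part of the macrophage markers in the C1q result was not tested.

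Single libraries and the file number runs also weighed on the C1q values. Without library 4 labelled Alk1-HEC-KO, the log2 fold changes of C1qa, C1qb and C1qc were 0.40, 0.57 and 0.49. Without the 3 libraries with Saa1 above 1000 TPM they were 0.15, 0.21 and 0.32 (edgeR, unadjusted p = 0.46, 0.27 and 0.074). With the run as a covariate they were 0.30, 0.31 and 0.37 (edgeR, unadjusted p = 0.36, 0.32 and 0.11), and 0 members were called, with 0.0388% of all genes called. Inside the first run, which holds 1 library labelled Alk1-HEC-KO and 2 Control libraries, the log2 ratios of mean TPM were 0.58, 0.56 and 0.51, and inside the second, with 1 and 3 libraries, 0.28, 0.31 and 0.48. The third run holds 3 libraries labelled Alk1-HEC-KO and no Control library, so these 3 do not enter the group contrast of the fit with the run as a covariate. What a run stands for is not stated in the labels.

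The C1 proteases, which hepatocytes make, lay level. C1s1, the gene of C1s, held 125, 158, 146, 129.8 and 87.5 TPM in the libraries labelled Alk1-HEC-KO and 133, 163, 101, 142 and 127 TPM in Control libraries. Its log2 fold change was -0.13, SE 0.11 (edgeR, adjusted p = 0.79). C1ra, the gene of C1r, averaged 119 ± 26.8 TPM in the libraries labelled Alk1-HEC-KO and 124 ± 24.9 TPM in Control libraries, with a log2 fold change of -0.14 (edgeR, adjusted p = 0.79). The pair kept nearly the same proportion in every library, with C1s1 over C1ra between 0.981 and 1.16. Their near copies C1s2 and C1rb took almost no reads, C1s2 being listed at 0 in all 10 libraries.

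In the lectin route, Mbl2 was the member with the larger difference and none was called. Mbl2, the gene of mannose-binding lectin C, held 346, 568, 449, 312 and 419 TPM in the libraries labelled Alk1-HEC-KO and 274, 246, 219.5, 458 and 337 TPM in Control libraries. Control library 4 stood among the higher libraries, so the groups overlapped, and the log2 fold change was 0.39, SE 0.20 (edgeR, adjusted p = 0.63). Within both file number runs that hold both groups the log2 ratio of mean TPM was 0.41. Mbl1, the gene of mannose-binding lectin A, averaged 121 ± 32.6 TPM in the libraries labelled Alk1-HEC-KO and 114 ± 22.3 TPM in Control libraries, a log2 fold change of 0.02. The lectin-associated proteases lay close to 0 as well. Masp1, which activates the complex, averaged 29.1 ± 7.02 TPM in the libraries labelled Alk1-HEC-KO and 28.9 ± 5.48 TPM in Control libraries (log2 fold change -0.07), and Masp2, which cuts C4 and C2, averaged 259 ± 42.8 TPM in the libraries labelled Alk1-HEC-KO and 244 ± 40 TPM in Control libraries (log2 fold change -0.05).

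C3, the component on which all routes meet, was the most abundant complement member and varied most among the Control libraries. It held 1304, 2944, 2455, 2374 and 3132 TPM in the libraries labelled Alk1-HEC-KO and 1231, 1454, 1229, 3197 and 1880.1 TPM in Control libraries. The highest library was Control library 4, and the lowest were Control libraries 3 and 1 and library 1 labelled Alk1-HEC-KO. The log2 fold change was 0.40, SE 0.31 (edgeR, adjusted p = 0.76). It was 0.17 without library 5 labelled Alk1-HEC-KO, 0.66 without Control library 4, and -0.05 with the run as a covariate. The C3 promoter is shown with the C/EBP motif TTGCNNAA, searched on both strands, in capitals, since C/EBP factors drive C3 in the acute phase response.
C3 (chromosome 17, minus strand, chr17:57228087-57228386): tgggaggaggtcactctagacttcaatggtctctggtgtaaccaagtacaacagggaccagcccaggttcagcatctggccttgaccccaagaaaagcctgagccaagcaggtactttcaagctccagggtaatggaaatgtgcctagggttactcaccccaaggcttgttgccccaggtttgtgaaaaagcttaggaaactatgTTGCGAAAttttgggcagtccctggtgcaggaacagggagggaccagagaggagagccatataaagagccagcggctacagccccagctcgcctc
C2 and Cfb encode the protease subunits of the C3 convertases and adjoin on chromosome 17. C2 averaged 57.3 ± 14.1 TPM in the libraries labelled Alk1-HEC-KO and 57.6 ± 13.6 TPM in Control libraries, with a log2 fold change of -0.12. Cfb averaged 654 ± 59.9 TPM in the libraries labelled Alk1-HEC-KO and 598 ± 135 TPM in Control libraries, with a log2 fold change of 0.02.

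Cfd, the protease that cuts factor B, was near the limit of detection. It was listed at 1.04, 0, 0, 0.132 and 0.123 TPM in the libraries labelled Alk1-HEC-KO and 1.16, 0.592, 0.397, 0.0775 and 0.465 TPM in Control libraries. These values rest on 19 counts in all 5 libraries labelled Alk1-HEC-KO and 39 counts in all 5 Control libraries. Most of the counts of the first group sat in library 1, and the groups overlapped (exact two-sided permutation p = 0.36 on TPM). The 6 adipocyte markers summed to 5.41 to 14.5 TPM in the libraries labelled Alk1-HEC-KO and 4.69 to 8.76 TPM in Control libraries. Most of that was Fabp4, which endothelial cells and macrophages also make, at 7.09 ± 4.23 TPM in the libraries labelled Alk1-HEC-KO and 4.27 ± 1.02 TPM in Control libraries, and Cidec, a lipid droplet gene that hepatocytes can make too, at 2.04 ± 1.30 TPM in the libraries labelled Alk1-HEC-KO and 2.38 ± 0.812 TPM in Control libraries. Adipoq averaged 0.102 ± 0.114 TPM in the libraries labelled Alk1-HEC-KO and was listed at 0 in all Control libraries, and Lep was at 0 in every library. The part of fat tissue in the Cfd values was not tested.

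The regulators among the members act in opposite ways on the convertases. Cfp, on chromosome X, encodes properdin, which stabilises the alternative convertase. It held 12.5, 10.4, 14.6, 22.7 and 14.8 TPM in the libraries labelled Alk1-HEC-KO and 9.75, 9.10, 11.1, 7.73 and 11.1 TPM in Control libraries. Library 2 labelled Alk1-HEC-KO lay inside the Control range and the other 4 above it. The log2 fold change was 0.61, SE 0.25 (edgeR, unadjusted p = 0.028, adjusted p = 0.52), and 0.13 without the 3 libraries with Saa1 above 1000 TPM. Divided by the macrophage marker sum, Cfp was 0.086 ± 0.00504 in libraries labelled Alk1-HEC-KO and 0.098 ± 0.0169 in Control libraries. Cfi, the protease that degrades C3b and C4b, held 283, 435, 424, 387 and 339.6 TPM in the libraries labelled Alk1-HEC-KO and 219, 302, 208, 506 and 298 TPM in Control libraries. The groups overlapped, with a log2 fold change of 0.24, SE 0.20 (edgeR, adjusted p = 0.78). C4bp, a cofactor of that protease, averaged 204 ± 44.4 TPM in the libraries labelled Alk1-HEC-KO and 214 ± 76.4 TPM in Control libraries (log2 fold change -0.08).

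From C5 to the pore, all 5 members pointed higher in the libraries labelled Alk1-HEC-KO, by log2 fold changes of 0.01 to 0.25, and none was called. C9, which polymerises into the pore, held 397, 578, 667, 664 and 698 TPM in the libraries labelled Alk1-HEC-KO and 384, 306, 529, 691 and 545 TPM in Control libraries. The ranges overlapped, and the log2 fold change was 0.25, SE 0.20 (edgeR, adjusted p = 0.78). C8a, a chain of the C8 complex that inserts into the membrane, held 182, 247, 243, 255 and 253 TPM in the libraries labelled Alk1-HEC-KO and 162, 178, 179, 302 and 224 TPM in Control libraries. C8b, its partner, held 186, 248, 285, 234 and 250.1 TPM in the libraries labelled Alk1-HEC-KO and 159.8, 222, 181, 284 and 232 TPM in Control libraries. C8a and C8b, neighbours on chromosome 4, kept a ratio between 0.804 and 1.09.

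C8g, the small lipocalin-like chain of C8, held 378, 312, 337, 359 and 369 TPM in the libraries labelled Alk1-HEC-KO and 385, 298, 322, 307 and 337 TPM in Control libraries. It was the steadiest complement member, its highest library only 1.29-fold above its lowest, and C8g over C8b ran from 1.08 to 2.41. The log2 fold changes of C8a, C8b and C8g were 0.02, 0.09 and 0.01 (edgeR, adjusted p = 0.98, 0.91 and 0.99). Hc, the mouse gene of C5, averaged 253 ± 56.6 TPM in the libraries labelled Alk1-HEC-KO and 216 ± 93.3 TPM in Control libraries (log2 fold change 0.12).

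Clotting proteases that need vitamin K lay within 0.12 of 0 on the log2 scale. F2, the gene of prothrombin, held 939.8, 1164, 1019, 1001 and 856 TPM in the libraries labelled Alk1-HEC-KO and 825, 942, 627, 1209.5 and 947 TPM in Control libraries. The range of the libraries labelled Alk1-HEC-KO lay inside that of the Control libraries, and the log2 fold change was 0.08, SE 0.15 (edgeR, adjusted p = 0.91). F7, which tissue factor activates, averaged 49.4 ± 7.51 TPM in the libraries labelled Alk1-HEC-KO and 46.2 ± 11 TPM in Control libraries (log2 fold change 0.03). F9, the factor missing in haemophilia B, averaged 77.9 ± 16.6 TPM in the libraries labelled Alk1-HEC-KO and 68.3 ± 13.7 TPM in Control libraries (log2 fold change 0.12). F10, the protease that cuts prothrombin, averaged 265 ± 33.3 TPM in the libraries labelled Alk1-HEC-KO and 246 ± 65.9 TPM in Control libraries (log2 fold change 0.04). The groups overlapped in all of them. F5, the cofactor of factor X, had the lowest log2 fold change of all members. It held 38.4, 57.4, 61.6, 37.7 and 25.2 TPM in the libraries labelled Alk1-HEC-KO and 46.8, 76.8, 32.1, 54.2 and 40.6 TPM in Control libraries. Both groups spread widely and overlapped, and the log2 fold change of -0.27 (SE 0.18) was not called (edgeR, adjusted p = 0.73). Inside the first run its log2 ratio of mean TPM was -0.69 and inside the second 0.54.

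The contact arm starts clotting on negatively charged surfaces. F11, whose protease activates factor IX, held 29.0, 37.2, 42.6, 27.1 and 15.8 TPM in the libraries labelled Alk1-HEC-KO and 19.6, 38.0, 27.9, 40.9 and 30.4 TPM in Control libraries, a log2 fold change of -0.14, SE 0.18 (edgeR, adjusted p = 0.86). Library 5 labelled Alk1-HEC-KO was the lowest of all. Kng1, the gene of the bradykinin precursor kininogen, held 1355, 1287, 1439.7, 1499 and 1025 TPM in the libraries labelled Alk1-HEC-KO and 1069, 1321, 709, 2031 and 1219.6 TPM in Control libraries, a log2 fold change of 0.02, SE 0.19 (edgeR, adjusted p = 0.98). Control libraries 3 and 4 were its lowest and highest. F12, the surface-activated protease, averaged 277 ± 43.8 TPM in the libraries labelled Alk1-HEC-KO and 265 ± 50.5 TPM in Control libraries (log2 fold change -0.01). Klkb1, prekallikrein, averaged 58.6 ± 15.6 TPM in the libraries labelled Alk1-HEC-KO and 55.8 ± 6.88 TPM in Control libraries (log2 fold change -0.03).

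Fga and Fgg were the most abundant clotting members, and the fibrinogen chains had the largest positive fold changes of that cascade, none called. Fga, the alpha chain (chromosome 3, 83026076 to 83033627, GRCm38), held 1659, 3765, 2708, 2106 and 3338 TPM in the libraries labelled Alk1-HEC-KO and 1440, 2309, 1235, 4356 and 1834 TPM in Control libraries. Fgb, the beta chain (83040141 to 83049863), held 749, 1712, 1204, 1105 and 1945 TPM in the libraries labelled Alk1-HEC-KO and 665, 971, 609, 1984 and 813 TPM in Control libraries. Fgg, the gamma chain (83007724 to 83015049), held 1653, 3556, 2501, 2269 and 3821 TPM in the libraries labelled Alk1-HEC-KO and 1412, 1945, 1369.8, 4196 and 1707 TPM in Control libraries. In all 3 genes Control library 4 was the highest of the 10, and libraries 2 and 5 labelled Alk1-HEC-KO came next. The log2 fold changes were 0.28, 0.43 and 0.38, with standard errors of 0.31, 0.34 and 0.32 (edgeR, adjusted p = 0.85, 0.78 and 0.79). Without library 5 labelled Alk1-HEC-KO they were 0.06, 0.10 and 0.09, without Control library 4 they were 0.61, 0.76 and 0.72, and with the run as a covariate -0.10, -0.10 and -0.08.

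The chains moved as a unit from library to library. Fgg over Fgb stayed between 1.96 and 2.25 in the 10 libraries, a coefficient of variation of 4.08%, and Fga over Fgb between 1.72 and 2.38. Their sum was 6818 ± 2219 TPM in the libraries labelled Alk1-HEC-KO and 5369 ± 2993 TPM in Control libraries (SD, n = 5 each), and the groups overlapped. The genes are neighbours within one locus, and their promoters are shown because the chains kept step. RefSeq (GRCm38.p6) windows run as above, 5′ to 3′ on the gene's strand. Capitals mark TTGCNNAA (C/EBP), CTGGGAA (the core of the IL-6 response element) and GTTAAT (a side of the HNF1 palindrome) on either strand.
Fga (plus strand, chr3:83025903-83026202): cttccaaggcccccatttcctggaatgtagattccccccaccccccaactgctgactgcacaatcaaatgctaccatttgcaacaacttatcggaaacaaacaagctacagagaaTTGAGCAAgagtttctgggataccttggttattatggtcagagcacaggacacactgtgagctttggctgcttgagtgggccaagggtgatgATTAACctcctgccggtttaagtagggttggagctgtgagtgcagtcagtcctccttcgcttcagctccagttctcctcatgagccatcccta
Fgb (minus strand, chr3:83049814-83050113): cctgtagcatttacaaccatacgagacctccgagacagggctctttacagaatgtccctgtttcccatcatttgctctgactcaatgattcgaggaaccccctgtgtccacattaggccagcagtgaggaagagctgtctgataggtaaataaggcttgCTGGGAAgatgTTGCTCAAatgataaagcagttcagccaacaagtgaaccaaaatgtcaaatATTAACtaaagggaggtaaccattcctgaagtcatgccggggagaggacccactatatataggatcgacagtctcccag
Fgg (plus strand, chr3:83007474-83007773): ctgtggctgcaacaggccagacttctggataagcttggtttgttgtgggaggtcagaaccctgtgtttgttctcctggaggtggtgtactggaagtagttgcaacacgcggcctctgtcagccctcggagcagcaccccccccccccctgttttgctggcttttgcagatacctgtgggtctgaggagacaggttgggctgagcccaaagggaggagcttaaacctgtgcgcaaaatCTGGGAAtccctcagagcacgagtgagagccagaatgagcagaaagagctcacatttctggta
The Fgb window held all 3 motifs, that of Fga the C/EBP and HNF1 letters, and that of Fgg the IL-6 core. Promoters were found for 32 of the 40 members, as 34 windows. TTGCNNAA occurred in 29.4% of them and in 10.8% of all 32851 windows, CTGGGAA in 14.7% and 11.1%, and GTTAAT in 29.4% and 7.1%. The motifs searched do not overlap in these windows, and a match describes letters and not binding.

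Genes of the acute phase response, in which cytokines such as IL-6 raise fibrinogen and C3, differed widely between libraries. Saa1, a serum amyloid gene, held 61.5, 196, 874, 6733 and 13331 TPM in the libraries labelled Alk1-HEC-KO and 55.5, 49.7, 146, 6586 and 351 TPM in Control libraries. Libraries 4 and 5 labelled Alk1-HEC-KO and Control library 4 stood apart from the rest. The Saa1 log2 fold change was 1.86, SE 1.86 (edgeR, adjusted p = 0.84). It was 4.90 without Control library 4, 0.47 without library 5 labelled Alk1-HEC-KO and -0.59 with the run as a covariate. Of 18 tested acute phase genes 16 pointed higher and 0 were called, and their sum ran from 7765 to 59782 TPM in the libraries labelled Alk1-HEC-KO and from 6495 to 40221 TPM in Control libraries. Among them Hpx, the gene of the haem-binding protein hemopexin and the most abundant, had a log2 fold change of 0.74, and Socs3, a feedback inhibitor of IL-6 signalling with the smallest p, one of 0.76 (edgeR, adjusted p = 0.75 and 0.64). Without those 3 libraries the log2 fold change of each fibrinogen chain was 0.44 and that of C3 0.39. The part of the acute phase genes in these values was not tested further.

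**Figure D3:**
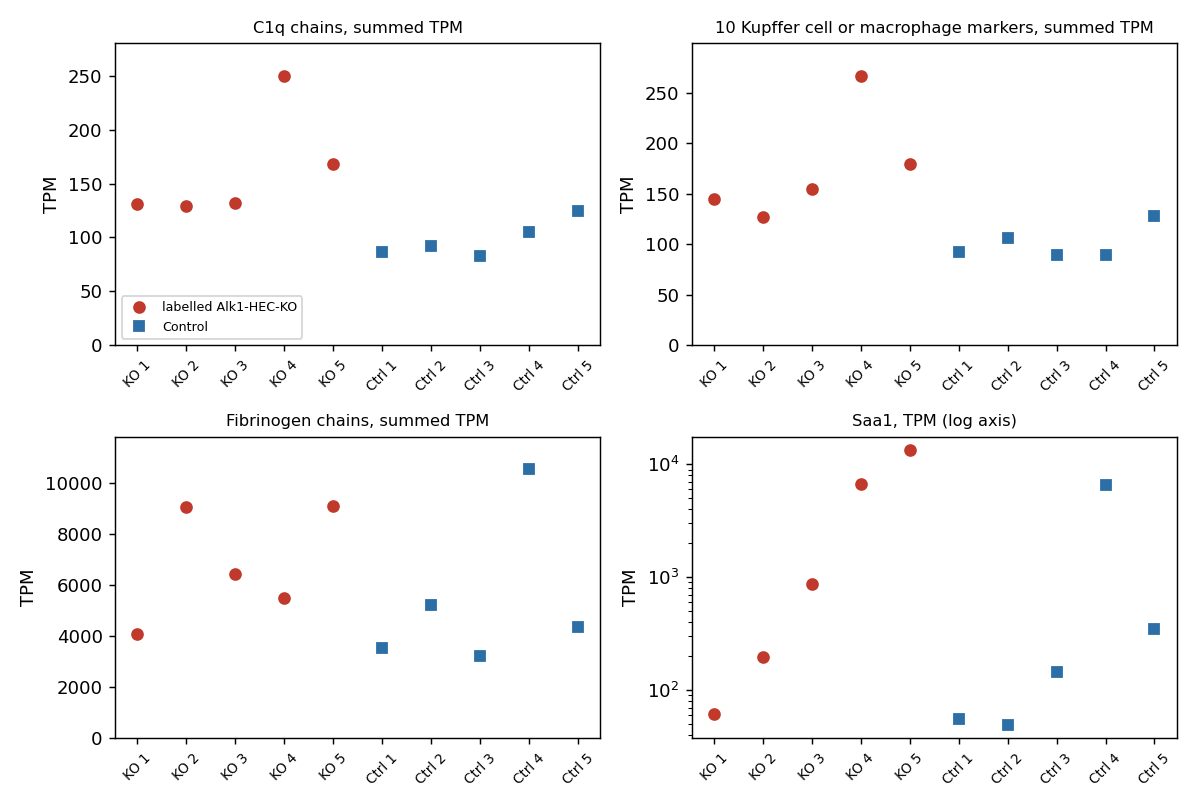
Summed TPM of the C1q chains, of the 10 macrophage markers and of the fibrinogen chains, and TPM of Saa1 on a log axis, in each of the 10 libraries (red circles labelled Alk1-HEC-KO, KO 1 to 5; blue squares Control, Ctrl 1 to 5). The C1q sum reaches 250.5 TPM in KO 4 and lies above 125 TPM in every labelled Alk1-HEC-KO library, while the fibrinogen sum is highest in Ctrl 4, at 10536 TPM.

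F13b, the carrier subunit of the factor that crosslinks fibrin, held 59.9, 64.5, 68.1, 62.9 and 32.0 TPM in the libraries labelled Alk1-HEC-KO and 55.4, 83.9, 45.3, 63.3 and 57.2 TPM in Control libraries. Library 5 labelled Alk1-HEC-KO was the lowest and Control library 2 the highest. The log2 fold change was -0.20, SE 0.15 (edgeR, adjusted p = 0.75).

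The inhibitors of clotting differed by no more than 0.06 on the log2 scale. Serpinc1, the gene of antithrombin, held 2164, 2617, 2881, 2155 and 1620.5 TPM in the libraries labelled Alk1-HEC-KO and 2221, 2682, 1602, 2887 and 2112 TPM in Control libraries. The means were nearly equal, and the log2 fold change was -0.06, SE 0.13 (edgeR, adjusted p = 0.93). Serpind1, heparin cofactor II, averaged 301 ± 48.1 TPM in the libraries labelled Alk1-HEC-KO and 279 ± 66.2 TPM in Control libraries (log2 fold change 0.05). Proc, the gene of protein C, which inactivates factors V and VIII, averaged 356 ± 50.6 TPM in the libraries labelled Alk1-HEC-KO and 341 ± 33.5 TPM in Control libraries (log2 fold change -0.01). Pros1, its cofactor protein S, averaged 17.0 ± 3.27 TPM in the libraries labelled Alk1-HEC-KO and 15.9 ± 7.56 TPM in Control libraries (log2 fold change 0.03). All 4 had a 95% interval within 0.5 of 0.

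Clot removal was represented by the plasmin precursor and its inhibitor. Plg, the gene of plasminogen, held 699.8, 1087, 1002, 901 and 712 TPM in the libraries labelled Alk1-HEC-KO and 676, 804, 585, 1182 and 813 TPM in Control libraries, with a log2 fold change of 0.05, SE 0.17 (edgeR, adjusted p = 0.95). Serpinf2, the gene of the main plasmin inhibitor, held 376, 620.1, 673, 564 and 472 TPM in the libraries labelled Alk1-HEC-KO and 319, 383, 333, 798 and 509 TPM in Control libraries, with a log2 fold change of 0.15, SE 0.23 (edgeR, adjusted p = 0.88). In both genes Control library 4 was the highest and the groups overlapped.

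A few libraries stood highest or lowest across both cascades. Control library 4 was the highest of the 10 in 20 of the 39 tested members, 7 of complement and 13 of clotting. Control library 3 was the lowest in 22, 9 of complement and 13 of clotting, and library 5 labelled Alk1-HEC-KO was the lowest in 9. These extremes were not particular to the members. The sum of the hepatocyte markers was also lowest in Control library 3, at 70674 TPM, and highest in Control library 4, at 119926 TPM. Library 2 labelled Alk1-HEC-KO came close, at 119536 TPM. The sum of the listed complement regulators outside the members ran from 3205 TPM in Control library 3 to 6977 TPM in Control library 4. The deviation of each tested member from its own median over the libraries was taken on the log2 TPM scale. The median of these deviations was 0.36 in Control library 4 and -0.47 in Control library 3. Among libraries labelled Alk1-HEC-KO it ran from -0.12 in library 1 to 0.25 in library 3 with both cascades pooled. For complement alone it ran from -0.15 in library 1 to 0.23 in library 3 of that group. For clotting alone it ran from -0.35 in library 5 to 0.30 in library 2. Library 5 labelled Alk1-HEC-KO thus differed between the cascades, with 0.12 for complement. All 21 complement members together held 6664 ± 1113 TPM in the libraries labelled Alk1-HEC-KO and 5495 ± 1630.4 TPM in Control libraries. That is 0.666% of all transcripts in libraries labelled Alk1-HEC-KO and 0.550% in Control libraries. All 19 clotting members held 14378 ± 2392 TPM in the libraries labelled Alk1-HEC-KO and 12589 ± 4726 TPM in Control libraries (SD, n = 5 each), or 1.44% in libraries labelled Alk1-HEC-KO and 1.26% in Control libraries. Both sums overlapped between the groups. The coefficient of variation of the 20 tested complement members, which leave out Cfd, ran from 7.53% (C8g) to 38.6% (C1qa) with a median of 22.5% in libraries labelled Alk1-HEC-KO, and from 10.4% (C8g) to 45.9% (C3) with a median of 21.3% in Control libraries. For clotting members it ran from 11.4% (F2) to 35.9% (Fgb) with a median of 21.2% in libraries labelled Alk1-HEC-KO, and from 9.82% (Proc) to 56.1% (Fga) with a median of 26.8% in Control libraries.

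**Figure D4:**
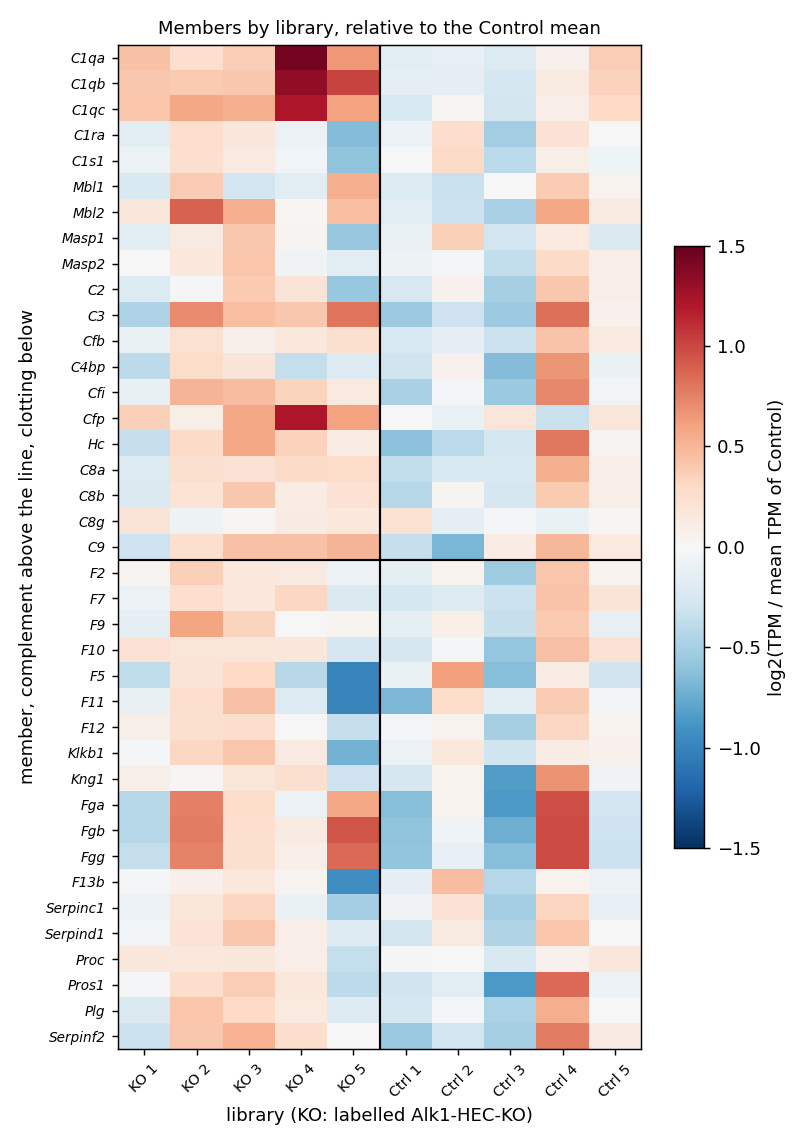
Level of each tested member (rows, complement above the line and clotting below) in each library (columns, KO 1 to 5 labelled Alk1-HEC-KO, then Ctrl 1 to 5), as log2 of its TPM over its mean TPM in Control libraries. Red is higher and blue lower. The C1q chains and Cfp are darkest red in KO 4, and most clotting members are red in Ctrl 4 and blue in Ctrl 3.

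The rest of both pathways, taken from lists of related genes, gave 1 call. Of 7 tested complement receptors 1 was called higher in the libraries labelled Alk1-HEC-KO and 5 had an unadjusted p under 0.05 (edgeR). Over all tested genes 0.357% were called, 8.44% had an unadjusted p under 0.05, and 1.62% had TPM without overlap. The sum of all 9 listed receptors ran from 15.0 to 30.3 TPM in those libraries and from 7.58 to 12.2 TPM in Control libraries, without overlap. Most of that sum was Vsig4, a gene without overlap that is also among the macrophage markers. The called gene was Cd93, a lectin-like receptor of endothelial and myeloid cells once named as a C1q receptor. It held 0.738, 0.863, 1.27, 1.93 and 0.465 TPM in the libraries labelled Alk1-HEC-KO and 0.291, 0.395, 0.186, 0.260 and 0.154 TPM in Control libraries. All 5 libraries labelled Alk1-HEC-KO lay above the Control libraries, a log2 fold change of 1.96, SE 0.34 (edgeR, adjusted p = 0.02). The call was lost without library 3 labelled Alk1-HEC-KO (edgeR, adjusted p = 0.058) and without Control library 1, 3, 4 or 5 (0.058, 0.066, 0.059 and 0.059). It was also lost with limma on log2(TPM + 1), where the log2 fold change was 0.67 (adjusted p = 0.11), with limma on log2(TPM + 0.1), where it was 1.60 (adjusted p = 0.061), and with the run as a covariate, where it was 1.84 (edgeR, adjusted p = 0.39). Without the libraries high in Saa1 the adjusted p was 0.06 and without those high in Fos 0.095 (edgeR). Markers of continuous endothelium, the lining of vessels outside the sinusoids, differed in part in the same direction, with 5 of 8 called higher. Their log2 fold changes were 2.80 for Cd34, 2.02 for Emcn, 5.07 for Ly6c1, 1.40 for Cldn5 and 2.11 for Cav1. Of the other 3, not called, Pecam1 had a log2 fold change of 1.02 and Plvap, the most abundant, one of 0.14, while Vwf pointed lower, at -1.16 (edgeR, unadjusted p = 0.01, adjusted p = 0.38). The sum of the 8 markers was 51.4 to 95.7 TPM in the libraries labelled Alk1-HEC-KO and 23.3 to 37.4 TPM in Control libraries. Of these calls only that of Ly6c1 held in every fit, and with the run as a covariate those of Cd34, Emcn, Cldn5 and Cav1 were lost (edgeR, adjusted p = 0.42, 0.072, 0.38 and 0.66). The part of these markers in the Cd93 result was not tested. Vsig4, a Kupffer cell receptor for C3b that is also among the macrophage markers, averaged 13.7 ± 3.25 TPM in the libraries labelled Alk1-HEC-KO and 7.76 ± 1.57 TPM in Control libraries and was not called (log2 fold change 0.77, edgeR adjusted p = 0.17), though DESeq2 called it (adjusted p = 0.026).

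Among 9 other complement components 0 were called. C4b, the gene of C4, averaged 437 ± 135 TPM in the libraries labelled Alk1-HEC-KO and 321 ± 90.7 TPM in Control libraries (log2 fold change 0.24), and its near-identical copy C4a averaged 26.2 ± 15.9 TPM in the libraries labelled Alk1-HEC-KO and 19.1 ± 5.89 TPM in Control libraries. How reads were split between such copies is not known, so both are uncertain. The 10 tested complement regulators gave 0 calls. Vitronectin (Vtn), the most abundant of them, had a log2 fold change of 0.21, and Cd55, a membrane protein that breaks up convertases and had the smallest p, one of 0.42 (edgeR, adjusted p = 0.77).

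On the clotting side, 11 other factors and cofactors, 11 clotting and contact inhibitors and 6 genes of fibrinolysis gave 0 calls. Their most abundant genes lay near 0, with log2 fold changes of 0.04 for the histidine-rich glycoprotein gene Hrg, 0.06 for the antitrypsin gene Serpina1a, which has close copies that can share its reads, and 0.06 for Cpb2, a carboxypeptidase that slows fibrinolysis. Vwf, the endothelial carrier of factor VIII and one of the continuous endothelial markers above, had the smallest p of the clotting factors, with 0.987 ± 0.535 TPM in the libraries labelled Alk1-HEC-KO and 1.56 ± 0.445 TPM in Control libraries and a log2 fold change of -1.16 on counts (edgeR, adjusted p = 0.38). Thbd, thrombomodulin, the endothelial receptor on which thrombin activates protein C, averaged 1.38 ± 0.477 TPM in the libraries labelled Alk1-HEC-KO and 0.609 ± 0.355 TPM in Control libraries (log2 fold change 1.16, edgeR adjusted p = 0.39). Plaur, the receptor of the plasminogen activator urokinase, had the smallest p in fibrinolysis, with 0.621 ± 0.257 TPM in the libraries labelled Alk1-HEC-KO and 0.285 ± 0.261 TPM in Control libraries (log2 fold change 1.13, edgeR adjusted p = 0.58). The 10 hepatocyte transcription factors with sites in such promoters gave 0 calls and a median log2 fold change of -0.06. Cebpa, the most abundant of them, averaged 218 ± 32.6 TPM in the libraries labelled Alk1-HEC-KO and 213 ± 29.8 TPM in Control libraries, and Foxa1 had the smallest p with a log2 fold change of -0.52 (edgeR, adjusted p = 0.58).

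Other cell types gave no called marker. All 5 tested markers of recruited leukocytes pointed higher in the libraries labelled Alk1-HEC-KO, with a median log2 fold change of 1.19. Of these, 2 had an unadjusted p under 0.05 (edgeR), where 5.03% of all tested genes did in that direction. The sum of the list ran from 7.42 to 1136 TPM in the libraries labelled Alk1-HEC-KO and from 5.02 to 598 TPM in Control libraries. It was led by Lcn2, which hepatocytes also make in the acute phase. The sum of 8 markers of sinusoidal endothelium ran from 46.3 to 92.0 TPM in the libraries labelled Alk1-HEC-KO and from 42.2 to 85.6 TPM in Control libraries, and that of 8 stellate cell markers from 77.4 to 253 TPM and from 109.9 to 177 TPM in the libraries labelled Alk1-HEC-KO and the Control libraries. Cholangiocyte markers summed to 16.5 to 51.4 TPM in the libraries labelled Alk1-HEC-KO and 15.1 to 27.8 TPM in Control libraries. Markers of platelets, carriers of fibrinogen and factor V, summed to 3.42 to 10.1 TPM in the libraries labelled Alk1-HEC-KO and 2.80 to 4.22 TPM in Control libraries. Those of lymphocytes summed to 3.47 to 6.13 TPM and 1.29 to 3.24 TPM in the libraries labelled Alk1-HEC-KO and the Control libraries, without overlap. The 2 tested lymphocyte markers pointed higher at an unadjusted p under 0.05 (edgeR), where 5.03% of all tested genes did. Their median log2 fold change was 1.37, and 0 were called. The part of these cell types in the members' values was not tested.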

How the data were processed

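Each of the 10 libraries had deposited estimated counts per gene and deposited TPM per gene, both over 55385 Ensembl IDs. Per the submitters' processing notes the authors used Trim Galore 0.6.4, kallisto 0.4.6 and GRCm38.p6, and how transcripts were summed to genes is not given in the sources used here. A GRCm38 annotation (GENCODE M21) gave symbols and coordinates for 55144 IDs. Estimated counts were rounded, filtered with filterByExpr, scaled by TMM and tested by quasi-likelihood in edgeR 4.0.16 (R 4.3.3, robust, group as the only term) over 12872 genes, with Benjamini-Hochberg adjustment. Totals of 20.91 to 21.56 M counts per library differed little. Standard errors and 95% intervals were derived from the quasi-likelihood F.

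The members and gene lists were chosen with earlier results of these data known. Values of every library are given for called members, for the member with the smallest p and the most abundant one of each role, for untested members, and for the chains of C1q, C8 and fibrinogen. Of other lists, called genes, the gene with the smallest p and the most abundant gene are named; cell types with no called marker are given by their sums. Vsig4, C4a, Adipoq, Cidec, Lep, Pecam1, C1s2, C1rb and Fos lie outside that rule and were named after their values were seen. 1 gene that the rule names is not reported here. On counts simulated from these libraries (12710 genes), edgeR called 10% of genes changed 1.5-fold, 60% changed 2-fold, 96% changed 4-fold and 94% changed 8-fold, with 127 calls of which 3 were unchanged genes. Alternatives were other scalings and filters, DESeq2 1.42.0, limma 3.58.1 on log2(TPM + 1) and log2(TPM + 0.1), a replicate block, the file number run, and leaving out libraries. Exact two-sided permutation tests used TPM.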

Additional observations from a re-analysis of the deposited data

Results flagged for a closer look

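In groups of 5 libraries, a value was singled out when its gap to the nearest other library, divided by the range of its group, exceeded 0.71 (Dixon's 95% critical value). Of 80 groups examined, 9 passed, where chance flags about 1 in 20. The groups share the same 10 libraries and are not independent, so that share cannot tell whether 9 is an excess. None was given an explanation.

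Library 4 labelled Alk1-HEC-KO stood above the other 4 libraries of its group in C1qa, at 109 TPM against 47.8 to 63.2 TPM, and in C1qc, at 57.4 TPM against 32.9 to 37.7 TPM. Library 1 of that group stood above the others in Cfd, the factor D gene, at 1.04 TPM against 0 to 0.132 TPM, and below them in C8a, a pore component, at 182 TPM against 243 to 255 TPM.

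Library 5 labelled Alk1-HEC-KO stood below the rest of its group in 3 clotting genes. It held 206 TPM of F10, the protease that makes thrombin, against 277 to 286 TPM, 32.0 TPM of F13b against 59.9 to 68.1 TPM, and 266 TPM of Proc, the protein C gene, against 365 to 384 TPM. Control library 4 stood above the other Control libraries in 2 fibrinogen chains, with 1984 TPM of Fgb against 609 to 971 TPM and 4196 TPM of Fgg against 1369.8 to 1945 TPM.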

How the results depend on the processing

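The number of complement members called stayed at 0 in every alternative except the fit without a filter on low counts, where it was 1 (C1qc, log2 fold change 0.64), and that of clotting members stayed at 0 in all. Over all genes 46 were called, against 119 without a filter, 152 by DESeq2, 5 with the file number run as a covariate, and 33 to 83 when single libraries were left out (83 without library 1 labelled Alk1-HEC-KO). Fits chosen after seeing the data called 30 genes without the libraries with Saa1 above 1000 TPM (libraries 4 and 5 labelled Alk1-HEC-KO and Control library 4) and 17 without those with Fos above 20 TPM. With the run as a covariate the log2 fold changes of C3, Fgb, Fgg, C4b and Saa1 changed sign, to -0.05, -0.10, -0.08, -0.03 and -0.59; a change of sign is counted here only where the log2 fold change exceeded its standard error. That fit contrasts the groups through libraries 1 and 3 labelled Alk1-HEC-KO alone, since libraries 2, 4 and 5 share a run with no Control library. The cause of these changes of sign was not tested. The labels do not say whether the replicate numbers pair the samples. Deviations of same-numbered libraries correlated at -0.10 to 0.28 and those of differently numbered libraries at -0.36 to 0.25. These values cannot exclude a weak pairing. With the replicate block 40 genes and 0 members were called, and 1 member changed sign. The median log2 fold change ran from -0.05 to 0.19 for complement and from -0.07 to 0.13 for clotting. Few counts limit what can be said of Cfd, the only member that failed the filter.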

Other observations

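Mannose-binding lectins A and C, products of Mbl1 and Mbl2, did not keep a fixed proportion as the fibrinogen chains did. Mbl2 over Mbl1 in TPM was 3.57 ± 0.853 in libraries labelled Alk1-HEC-KO and 2.68 ± 0.443 in Control libraries (SD, n = 5 each), and ran from 1.92 in Control library 3 to 4.82 in library 3 labelled Alk1-HEC-KO. Its coefficient of variation over the 10 libraries was 25.5%, against 26.5% for C8g over C8b, 8.92% for C8a over C8b, 5.01% for C1s1 over C1ra and 4.08% for Fgg over Fgb. In each of these ratios the groups overlapped.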
